A study of Mus musculus with 12 samples.

Results

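The genes described here mark the non-parenchymal cells that line and support the liver sinusoid, as they were measured in primary hepatocyte cultures. They comprise 34 genes of 32970 genes or accessions with a probe on the array, 18 of sinusoidal or general endothelial cells and 16 of stellate cells and fibroblasts. Members were chosen by symbol, through the transcript accession of each probe, and the brightest probe stands for a gene. Of the 34 members, 31 passed the filter on dim probes (flagged by the scanner software as well above background on each of the 3 arrays of some group), among them all 18 endothelial genes and 13 of 16 stellate or fibroblast genes. Col6a1, Des and Lrat did not pass.

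Cultures were made from livers of C57BL/6 mice that lacked PGC-1alpha (-/-) or carried it (+/+), a transcriptional coactivator encoded by Ppargc1a. Each of 6 mice, 3 per genotype, gave 1 culture with an adenovirus encoding a hairpin that targets 1 gene (knockdown below) and 1 with an adenovirus encoding a control hairpin (control below). The 4 groups of 3 arrays were therefore -/- knockdown, -/- control, +/+ knockdown and +/+ control. All groups shared the collagenase digestion of the whole liver, plates coated with collagen, medium with 100 nM dexamethasone and 100 nM insulin, a multiplicity of infection of 5 and a harvest 24 h after infection. No step that removes other liver cells is named in the protocols, and the labels call the cells hepatocytes. Age and sex of the mice are not given in the sources used here. Cultures of 1 mouse share its liver digest, so the hairpins can also be compared within a mouse, as the fits with a block do, while genotypes differ between mice.

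Sinusoidal endothelial cells form the fenestrated, scavenging lining of the liver capillaries and carry receptors such as stabilins that clear waste from blood. Stellate cells lie beneath them, store retinoid, and after injury or in culture turn into contractile cells that deposit fibrillar collagen. Both cell types are released by collagenase together with hepatocytes and can be carried into a hepatocyte culture. In RNA of a whole culture, fewer cells of a type and less RNA per cell cannot be told apart, and this holds for every level below. Values are log2 signals after quantile normalization, so 1 unit is a factor of 2 in signal, and a level is compared between arrays for 1 probe only. Where 3 values follow a group, they belong to mouse 1, mouse 2 and mouse 3 of that genotype.

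The main pattern was variation between replicate numbers, each of which is 1 mouse per genotype with its own assay and slide. Mouse, assay and slide are therefore not separated where a difference between mice is named below. Endothelial genes were highest in mouse 1 of the -/- mice for 16 of 18 members and stellate or fibroblast genes for 13 of 13 tested members, against 31.5% of all tested genes. That mouse stood out in these same values, so the counts describe a pattern and do not test it. Fibrillar collagen genes spanned 4.86 to 5.6 log2 units between -/- mice. The comparison of knockdown with control called 0 of 31 tested members in -/- cells (0.994% of all genes) and in +/+ cells (1.20%), and the genotype averaged over vectors called 0 as well (0.116%). With the mouse as a block, 4 of 31 were called averaged over genotypes, Vwf, Flt1 and Esam higher and Vim lower, against 32.8% of all genes. With spike-in scaling the differences of Flt1 and Esam were negative (-0.25 and -0.45), where the median of all tested genes was -0.81.

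Promoters of members are shown first, since sequence was not used to choose them. RefSeq promoters of build GRCm38.p6, the 250 bases before each annotated start, were matched for 12 endothelial genes (14 promoters, 3 of them of Egfl7) and 11 stellate or fibroblast genes (11 promoters). The letters AGGAAG, which hold the GGAA core that ETS factors bind, were searched on both strands together with TATAAA, the TATA box, and these motifs do not overlap. AGGAAG was in 10 of 14 endothelial promoters (71.4%), against 4 of 11 stellate or fibroblast promoters (36.4%) and 29.5% of 32851 promoters of the same length. Genes with it were Clec4g, Egfl7, Emcn, Eng, Flt1, Robo4, Stab1, Stab2 and Tie1 among the endothelial members. Among the stellate or fibroblast members they were Col5a1, Col6a1, Timp1 and Vim. TATAAA was in 2 of 14 endothelial promoters (14.3%), in 2 of 11 stellate or fibroblast promoters (18.2%) and in 12.4% of all promoters. A match is a run of letters in this window and does not show that a factor binds there.

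Promoters of 4 members follow, 5′ to 3′ on the strand of the gene, with matches to AGGAAG (or CTTCCT, its reverse complement) and to TATAAA in capitals. Flt1 and Robo4 stand for endothelial genes with 1 or more AGGAAG matches near the start. Vim holds both motifs and was the stellate or fibroblast gene that differed most steadily with knockdown. Col3a1 is 1 of the fibrillar collagen genes and holds a TATAAA match but no AGGAAG match. The fibrillar collagens were not alike here, since Col5a1 holds an AGGAAG match and neither Col1a2 nor Col5a1 holds TATAAA. Their positions are chr5:147726012-147726261 (minus strand), chr9:37401722-37401971 (plus strand), chr2:13574061-13574310 (plus strand) and chr1:45311288-45311537 (plus strand).
Flt1: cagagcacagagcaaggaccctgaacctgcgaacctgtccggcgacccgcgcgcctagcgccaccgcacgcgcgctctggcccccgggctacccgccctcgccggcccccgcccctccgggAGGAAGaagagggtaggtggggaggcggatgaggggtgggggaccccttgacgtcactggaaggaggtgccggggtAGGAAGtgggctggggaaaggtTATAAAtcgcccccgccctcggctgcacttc
Robo4: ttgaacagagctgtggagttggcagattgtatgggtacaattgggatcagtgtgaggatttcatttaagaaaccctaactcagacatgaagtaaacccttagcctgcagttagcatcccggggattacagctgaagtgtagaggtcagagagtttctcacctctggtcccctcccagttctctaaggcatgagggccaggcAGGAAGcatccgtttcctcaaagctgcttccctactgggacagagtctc
Vim: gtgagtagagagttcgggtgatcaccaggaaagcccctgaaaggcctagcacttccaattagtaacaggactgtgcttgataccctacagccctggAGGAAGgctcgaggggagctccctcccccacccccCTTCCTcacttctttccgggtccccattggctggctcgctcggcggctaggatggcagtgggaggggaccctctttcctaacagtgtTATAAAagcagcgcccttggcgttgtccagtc
Col3a1: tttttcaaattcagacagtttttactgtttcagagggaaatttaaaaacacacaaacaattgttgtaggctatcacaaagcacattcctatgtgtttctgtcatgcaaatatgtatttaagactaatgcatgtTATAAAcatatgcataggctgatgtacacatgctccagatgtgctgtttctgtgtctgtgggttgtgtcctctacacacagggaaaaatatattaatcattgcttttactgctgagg

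Flt1 held 2 AGGAAG matches and a TATAAA match in this window. Robo4 held 1 AGGAAG match and no TATAAA match, and Vim held 2 AGGAAG matches, 1 on each strand, and a TATAAA match. Only these letters were counted, so shorter GGAA runs are not among the matches.

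Across the series, 19012 genes or accessions were tested. An array had 22706 to 26680 probes well above background and 0 saturated spots. At their 75th percentile, processed signals of knockdown arrays lay between 343.5 and 634.6, below those of control arrays (810.4 to 1064.3). Each slide held 1 array of every group, each group had 1 fixed position on all slides, and position and group cannot be told apart. The probe of Ppargc1a read 8.84, 8.91 and 8.67 in -/- knockdown cells, 9.71, 9.4 and 9.04 in -/- control cells, 8.56, 10.99 and 8.42 in +/+ knockdown cells and 9.03, 10.39 and 8.23 in +/+ control cells, with genotype differences of -0.18 (SE 0.52, adjusted p = 1.0 with limma) averaged over vectors. Which part of that gene was deleted is not stated, and the probe therefore gives no check of the genotype. The 3 replicates of a group come from 3 mice, and each has its own assay number and slide. The p-values therefore measure the spread between mice together with that between assays and slides. This does not hold for knockdown with a block, or for genotype with a replicate block. With the mouse as a block, p-values for knockdown measure the spread of the differences within mice.

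Hepatocyte markers were well above background on all 12 arrays for 13 of 13 genes with a probe. Alb, the serum albumin gene, read 16.86, 16.96 and 17.19 in -/- knockdown cells, 17.44, 16.94 and 17.03 in -/- control cells, 17.55, 17.53 and 17.39 in +/+ knockdown cells and 17.75, 17.55 and 17.19 in +/+ control cells. Endothelial members were well above background on all arrays for 15 of 18 genes, and stellate or fibroblast members for 12 of 16.

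**Figure D1:**
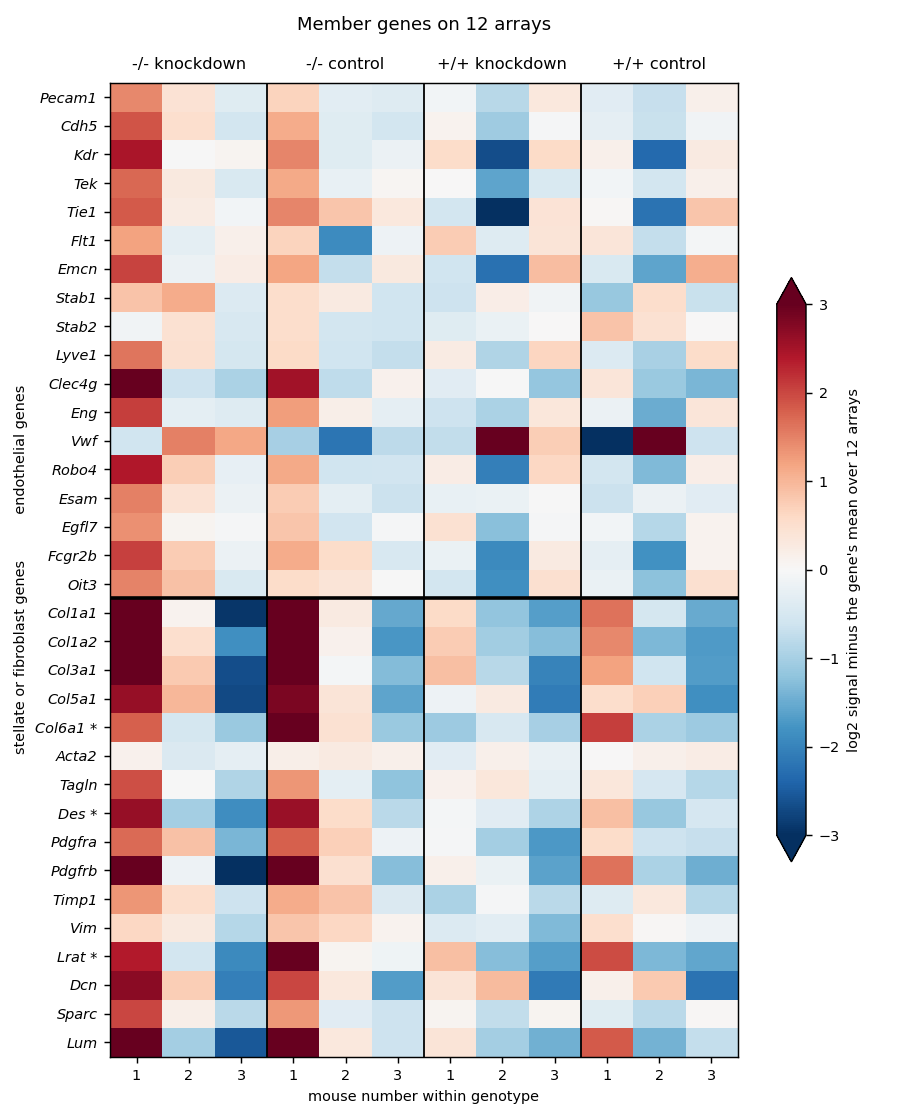
Log2 signal of each of 34 members minus its mean over 12 arrays, by group and mouse; red is above the mean, blue below, the colour scale ends at 3 units either way, and an asterisk marks the 3 members that did not pass the filter. Mouse 1 of the -/- mice is red down most of both gene groups with both hairpins, mouse 2 of the +/+ mice is blue for most endothelial genes, and Acta2 and Stab2 stay near white.

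Endothelial genes that build the junctions between cells are given first. Pecam1, an adhesion molecule of endothelial junctions, read 8.0, 7.0 and 6.2 in -/- knockdown cells, 7.24, 6.26 and 6.19 in -/- control cells, 6.48, 5.73 and 6.89 in +/+ knockdown cells and 6.24, 5.89 and 6.72 in +/+ control cells. Cdh5, which encodes VE-cadherin, read 11.88, 10.5 and 9.44 in -/- knockdown cells, 11.11, 9.62 and 9.44 in -/- control cells, 10.1, 8.92 and 9.97 in +/+ knockdown cells and 9.73, 9.33 and 9.9 in +/+ control cells. Esam, an endothelial adhesion molecule of tight junctions, read 10.24, 9.15 and 8.55 in -/- knockdown cells, 9.49, 8.44 and 8.07 in -/- control cells, 8.5, 8.52 and 8.71 in +/+ knockdown cells and 8.09, 8.56 and 8.39 in +/+ control cells. All 3 genes were highest in mouse 1 of the -/- mice, and their knockdown and control values of that mouse lay above every +/+ value. In the other mice the groups overlapped.

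Receptors for vascular growth factors and guidance cues showed larger spreads between mice. Kdr, the main signalling receptor for VEGF, read 10.87, 8.42 and 8.5 in -/- knockdown cells, 9.89, 8.06 and 8.25 in -/- control cells, 8.97, 5.76 and 9.01 in +/+ knockdown cells and 8.58, 6.09 and 8.69 in +/+ control cells. Mouse 2 of the +/+ mice stood 2.93 log2 units below mouse 3 for Kdr, a 7.61-fold range over the means of the 3 +/+ mice. Flt1, a VEGF receptor that also acts as a decoy, read 12.73, 11.24 and 11.68 in -/- knockdown cells, 12.19, 9.65 and 11.37 in -/- control cells, 12.29, 11.15 and 11.92 in +/+ knockdown cells and 11.89, 10.81 and 11.48 in +/+ control cells. For Flt1 the lowest value was the control culture of -/- mouse 2. Tek, the angiopoietin receptor Tie2, read 7.55, 6.12 and 5.37 in -/- knockdown cells, 6.98, 5.62 and 5.9 in -/- control cells, 5.86, 4.25 and 5.37 in +/+ knockdown cells and 5.76, 5.28 and 5.99 in +/+ control cells. Tie1, the related orphan receptor, read 6.95, 5.36 and 5.03 in -/- knockdown cells, 6.58, 5.94 and 5.43 in -/- control cells, 4.55, 1.97 and 5.51 in +/+ knockdown cells and 5.15, 2.9 and 5.93 in +/+ control cells. Tie1 was not well above background on 2 arrays, 1 in each +/+ group, and its 2 lowest values were those of +/+ mouse 2. Robo4, a receptor that stabilises vessels, read 13.88, 12.23 and 11.24 in -/- knockdown cells, 12.61, 10.88 and 10.91 in -/- control cells, 11.71, 9.44 and 12.1 in +/+ knockdown cells and 10.94, 10.15 and 11.68 in +/+ control cells. Eng, the TGF-beta co-receptor endoglin, read 9.93, 7.57 and 7.48 in -/- knockdown cells, 9.13, 8.03 and 7.59 in -/- control cells, 7.24, 6.91 and 8.21 in +/+ knockdown cells and 7.69, 6.37 and 8.23 in +/+ control cells. Both genes were highest on the arrays of -/- mouse 1 and lowest on arrays of +/+ mouse 2.

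Scavenger and clearance receptors define the sinusoidal kind of endothelium. Stab1, the scavenger receptor stabilin-1, read 10.61, 10.87 and 9.33 in -/- knockdown cells, 10.27, 10.02 and 9.16 in -/- control cells, 9.13, 9.94 and 9.65 in +/+ knockdown cells and 8.61, 10.28 and 9.09 in +/+ control cells. Stab2, the hyaluronan receptor stabilin-2, read 7.94, 8.5 and 7.57 in -/- knockdown cells, 8.58, 7.49 and 7.45 in -/- control cells, 7.68, 7.84 and 8.05 in +/+ knockdown cells and 8.91, 8.5 and 8.06 in +/+ control cells. The stabilins differed from the other genes in size of range or order over +/+ mice: Stab2 spanned 0.75 over -/- mice and 0.24 over +/+ mice, the smallest ranges of the 18 genes over the -/- mice and over the +/+ mice. Stab1 was highest of the +/+ mice in mouse 2, where most endothelial genes were lowest. Lyve1, a hyaluronan receptor, read 11.4, 10.28 and 9.26 in -/- knockdown cells, 10.37, 9.2 and 9.08 in -/- control cells, 10.03, 8.89 and 10.43 in +/+ knockdown cells and 9.39, 8.82 and 10.33 in +/+ control cells. Fcgr2b, the inhibitory Fc receptor of sinusoidal endothelium, read 11.63, 10.35 and 9.4 in -/- knockdown cells, 10.7, 10.14 and 9.1 in -/- control cells, 9.37, 7.66 and 9.84 in +/+ knockdown cells and 9.31, 7.76 and 9.68 in +/+ control cells. Clec4g, the sinusoidal lectin LSECtin, read 8.4, 4.48 and 4.14 in -/- knockdown cells, 7.62, 4.33 and 5.21 in -/- control cells, 4.75, 5.07 and 3.92 in +/+ knockdown cells and 5.45, 3.98 and 3.73 in +/+ control cells. Clec4g had the largest range of the endothelial genes over -/- mice, 3.6 units or 12.1-fold, and it was not well above background on 1 array of each +/+ group.

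The remaining endothelial genes encode secreted or surface products. Egfl7, a secreted factor of endothelial matrix, read 12.98, 11.69 and 11.58 in -/- knockdown cells, 12.43, 11.04 and 11.56 in -/- control cells, 12.06, 10.34 and 11.57 in +/+ knockdown cells and 11.53, 10.76 and 11.72 in +/+ control cells. Emcn, the sialomucin endomucin, read 12.1, 9.9 and 10.28 in -/- knockdown cells, 11.24, 9.36 and 10.35 in -/- control cells, 9.46, 7.83 and 11.0 in +/+ knockdown cells and 9.6, 8.49 and 11.16 in +/+ control cells. Oit3, a secreted protein of liver, read 10.58, 9.99 and 8.65 in -/- knockdown cells, 9.66, 9.48 and 9.1 in -/- control cells, 8.55, 7.27 and 9.59 in +/+ knockdown cells and 8.91, 7.87 and 9.59 in +/+ control cells. In each of these 3 genes -/- mouse 1 held the highest value and a culture of +/+ mouse 2 the lowest. Vwf, the von Willebrand factor of clotting, read 7.39, 9.48 and 9.15 in -/- knockdown cells, 6.98, 5.78 and 7.2 in -/- control cells, 7.23, 11.62 and 8.72 in +/+ knockdown cells and 3.83, 11.01 and 7.36 in +/+ control cells. Its order of mice was another one: +/+ mouse 2 was highest with either hairpin, and the means of the +/+ mice spanned 5.79 units or 55.1-fold. The second probe of Vwf, A_51_P103406, spanned 5.27 units over the same mice, so both probes gave this order.

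Fibrillar collagens led the stellate or fibroblast genes. Col1a1, a chain of type I collagen, read 13.7, 10.51 and 7.49 in -/- knockdown cells, 13.86, 10.68 and 8.87 in -/- control cells, 10.98, 9.21 and 8.74 in +/+ knockdown cells and 12.02, 9.87 and 8.9 in +/+ control cells. The means of the -/- mice were 13.78, 10.6 and 8.18 for Col1a1, a 48.6-fold range, while those of the +/+ mice spanned 2.68 units or 6.41-fold. Col1a2, the partner chain, read 13.56, 10.97 and 8.62 in -/- knockdown cells, 13.51, 10.6 and 8.72 in -/- control cells, 11.22, 9.42 and 9.19 in +/+ knockdown cells and 11.9, 9.11 and 8.76 in +/+ control cells. Col3a1, the chain of type III collagen, read 12.44, 10.05 and 6.6 in -/- knockdown cells, 12.28, 9.21 and 7.95 in -/- control cells, 10.15, 8.43 and 7.26 in +/+ knockdown cells and 10.47, 8.67 and 7.59 in +/+ control cells. Col5a1, a chain of type V collagen, read 11.03, 9.4 and 5.71 in -/- knockdown cells, 11.23, 8.8 and 6.83 in -/- control cells, 8.26, 8.69 and 6.32 in +/+ knockdown cells and 8.93, 9.13 and 6.58 in +/+ control cells. Their ranges over -/- mice were 4.86 (Col1a2), 5.09 (Col3a1) and 4.86 (Col5a1), in the order mouse 1, mouse 2, mouse 3 each time. Col6a1, a chain of type VI collagen, was well above background on 3 arrays, those of mouse 1 with -/- knockdown, -/- control and +/+ control, and ranged between 1.38 and 5.53 with a median of 1.77.

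Proteoglycans and other matrix proteins followed the collagens in the -/- mice. Dcn, the collagen-binding proteoglycan decorin, read 13.84, 11.87 and 9.09 in -/- knockdown cells, 13.14, 11.44 and 9.46 in -/- control cells, 11.52, 12.09 and 9.02 in +/+ knockdown cells and 11.28, 11.92 and 8.91 in +/+ control cells. Lum, the related lumican, read 8.67, 4.56 and 3.04 in -/- knockdown cells, 8.73, 5.91 and 4.97 in -/- control cells, 5.98, 4.57 and 4.14 in +/+ knockdown cells and 7.43, 4.16 and 4.88 in +/+ control cells, and 10 of these values were well above background. Sparc, a matrix protein that binds collagen, read 13.69, 11.87 and 10.87 in -/- knockdown cells, 12.99, 11.35 and 11.06 in -/- control cells, 11.76, 10.94 and 11.77 in +/+ knockdown cells and 11.33, 10.87 and 11.72 in +/+ control cells. Over +/+ mice the genes parted: Dcn was highest in mouse 2 and spanned 3.04 units, the largest range of the tested stellate or fibroblast genes there, while Sparc spanned 0.84. Timp1, an inhibitor of matrix metalloproteinases, read 13.22, 12.42 and 11.27 in -/- knockdown cells, 13.02, 12.75 and 11.47 in -/- control cells, 10.95, 11.87 and 11.09 in +/+ knockdown cells and 11.51, 12.21 and 11.05 in +/+ control cells. Timp1 differed 3.37-fold between -/- mice and 1.96-fold between +/+ mice.

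Receptors and markers of the cells themselves gave the same order in -/- mice. Pdgfra, a receptor for platelet-derived growth factor, read 7.78, 6.96 and 4.71 in -/- knockdown cells, 7.88, 6.8 and 5.94 in -/- control cells, 6.05, 5.07 and 4.36 in +/+ knockdown cells and 6.65, 5.46 and 5.4 in +/+ control cells. Pdgfrb, the receptor that marks stellate cells and pericytes, read 10.12, 6.98 and 4.01 in -/- knockdown cells, 10.61, 7.6 and 5.84 in -/- control cells, 7.27, 6.92 and 5.52 in +/+ knockdown cells and 8.74, 6.18 and 5.66 in +/+ control cells. Pdgfrb spanned 5.44 units or 43.3-fold over -/- mice, close to the range of Col1a1. Lrat, which esterifies retinol in quiescent stellate cells, was well above background on 4 arrays and ranged between 1.42 and 6.43 with a median of 2.98. Des, the intermediate filament desmin, was well above background on 7 arrays and ranged between 1.92 and 6.41 with a median of 3.36. Both were highest in mouse 1 of the -/- mice.

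Contractile and cytoskeletal genes kept this order in -/- mice apart from the brightest probe of Acta2. Tagln, the actin-binding protein SM22, read 13.84, 11.89 and 11.0 in -/- knockdown cells, 13.21, 11.6 and 10.7 in -/- control cells, 12.03, 12.23 and 11.6 in +/+ knockdown cells and 12.23, 11.4 and 11.04 in +/+ control cells. Vim, the intermediate filament vimentin of mesenchymal cells, read 16.79, 16.46 and 15.3 in -/- knockdown cells, 17.0, 16.79 and 16.26 in -/- control cells, 15.75, 15.85 and 14.84 in +/+ knockdown cells and 16.67, 16.19 and 16.0 in +/+ control cells. Vim spanned only 1.11 units over -/- mice and 0.79 over +/+ mice. Acta2, the smooth muscle actin of activated stellate cells, read 13.41, 12.85 and 13.0 in -/- knockdown cells, 13.45, 13.54 and 13.42 in -/- control cells, 12.95, 13.44 and 13.06 in +/+ knockdown cells and 13.29, 13.42 and 13.51 in +/+ control cells with its brightest probe, A_51_P450957. That probe spanned 0.24 over -/- mice and 0.30 over +/+ mice, the smallest ranges of the 13 tested genes. The other Acta2 probes did not share this: A_52_P420504 read 13.62, 10.18 and 8.17 in -/- knockdown cells, 12.88, 10.33 and 9.07 in -/- control cells, 10.94, 9.06 and 9.38 in +/+ knockdown cells and 11.19, 8.81 and 9.31 in +/+ control cells. A_52_P210078 spanned 4.9 over -/- mice, against 4.63 for A_52_P420504, with mouse 1 highest and mouse 3 lowest for both. The brightest probe of Acta2 therefore disagreed with 2 other probes that are assigned to the same transcript and were well above background on all 12 arrays, and no level is given for the gene as a whole.

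**Figure D2:**
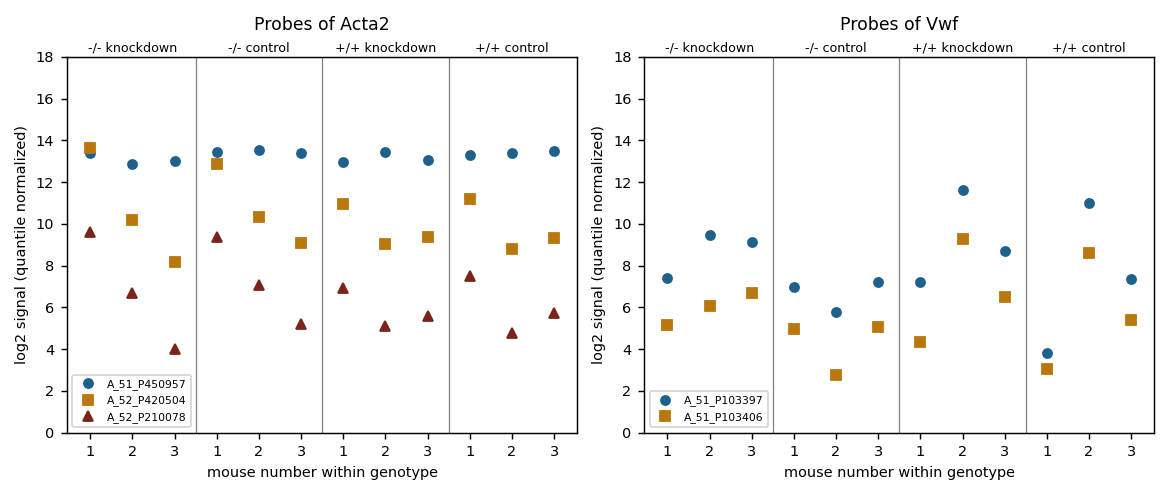
Log2 signal of 3 Acta2 probes (left) and 2 Vwf probes (right) on each array, by group and mouse. The brightest Acta2 probe lies between 12.85 and 13.54 on all arrays while the other 2 probes differ between mice by over 4 units in -/- cells; both Vwf probes are highest in mouse 2 of the +/+ mice.

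Counted over the groups, the difference between mice was larger than the difference between hairpins within a mouse. The median range over -/- mice was 1.67 for the 18 endothelial genes and 4.21 for the 13 tested stellate or fibroblast genes. Over +/+ mice it was 1.4 for endothelial and 2.33 for stellate or fibroblast genes. The same medians over all tested genes were 0.73 for -/- mice and 0.81 for +/+ mice. A median absolute difference of 0.54 (-/-) and 0.40 (+/+) was found between knockdown and control cultures of a mouse for endothelial genes, and of 0.37 (-/-) and 0.41 (+/+) for stellate or fibroblast genes. These medians were 0.47 and 0.52 over all tested genes. Both arrays of a mouse share its slide, so mouse and slide cannot be told apart within a genotype.

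A 4-fold range or more over -/- mice was found in 6 of 18 endothelial genes (Cdh5, Kdr, Flt1, Emcn, Clec4g and Robo4) and in 10 of 13 tested stellate or fibroblast genes, against 7.73% of all tested genes. The exceptions among the stellate or fibroblast genes were Timp1, Vim and the brightest probe of Acta2, whose other 2 probes spanned 4.63 and 4.9 units. Just under the limit of 2 log2 units lay Eng with 2.0 units, or 3.99-fold, and just above it Flt1 with 4.05-fold. Over +/+ mice 7 of 18 endothelial genes (Kdr, Tie1, Emcn, Vwf, Robo4, Fcgr2b and Oit3) and 7 of 13 stellate or fibroblast genes had such a range, against 10.4%. In the stellate or fibroblast set these were Col1a1, Col1a2, Col3a1, Col5a1, Pdgfrb, Dcn and Lum.

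The order of the mice was shared by most members. Mouse 3 was lowest of the -/- mice for 12 of 18 endothelial and 12 of 13 stellate or fibroblast genes, against 35.4% of all tested genes. Among +/+ mice the 2 sets parted: mouse 2 was lowest for 13 of 18 endothelial genes and for 2 of 13 stellate or fibroblast genes (Sparc and Lum), against 42.3%. Mouse 1 was highest of the +/+ mice for 5 of 18 endothelial and 8 of 13 stellate or fibroblast genes, against 34.3%. Genes of 1 cell type move together within a culture, so these counts describe few independent events. The mice counted are those that stood out in these same values, so the shares describe the order and do not test it. Mouse 1 stayed highest of the -/- mice for 16 of 18 endothelial genes under each scaling tried and for 11 to 13 of the 13 others.

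Other lists were set beside the members. Of 41 further endothelial genes with a probe, the median level, relative to each gene's mean over all arrays, was 1.4, 0.31 and -0.21 in -/- knockdown cells, 1.07, 0.05 and -0.31 in -/- control cells, 0.00, -0.80 and 0.06 in +/+ knockdown cells and -0.11, -0.89 and 0.07 in +/+ control cells. With either hairpin, mouse 1 was highest of the -/- mice and mouse 2 lowest of the +/+ mice, as in the 18 members. Of 47 further stellate or fibroblast genes it was 0.82, 0.16 and -0.92 in -/- knockdown cells, 1.22, 0.08 and -0.41 in -/- control cells, -0.22, 0.03 and -0.83 in +/+ knockdown cells and 0.54, -0.11 and -0.41 in +/+ control cells. Mouse 1 was again the highest and mouse 3 the lowest of the -/- mice.

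Macrophage markers also differed between mice. Their median level over 17 genes was 1.66, -0.17 and -1.14 in -/- knockdown cells, 2.19, 2.28 and -0.55 in -/- control cells, 0.18, -1.74 and -1.38 in +/+ knockdown cells and 0.81, -1.59 and -0.70 in +/+ control cells. Clec4f, a lectin of Kupffer cells, read 9.6, 1.78 and 3.57 in -/- knockdown cells, 10.73, 5.54 and 5.66 in -/- control cells, 6.79, 1.32 and 2.51 in +/+ knockdown cells and 8.43, 1.37 and 4.11 in +/+ control cells. Cd5l, a secreted macrophage protein, read 11.42, 6.89 and 8.45 in -/- knockdown cells, 12.8, 11.62 and 10.45 in -/- control cells, 9.24, 6.0 and 7.23 in +/+ knockdown cells and 10.5, 5.85 and 9.56 in +/+ control cells. Each of the 17 markers was well above background on at least 1 array and 11 were on all 12 arrays. Summed over the list and taken as log2, the signal of -/- knockdown cells lay between 13.52 and 15.21 and that of -/- control cells between 14.07 and 16.54. For +/+ knockdown cells it lay between 12.97 and 14.05, and for +/+ control cells between 13.68 and 14.71. Hepatocyte markers had median ranges of 0.53 over -/- mice and 1.11 over +/+ mice. The part of these other cells in the values of the members was not tested.

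**Figure D3:**
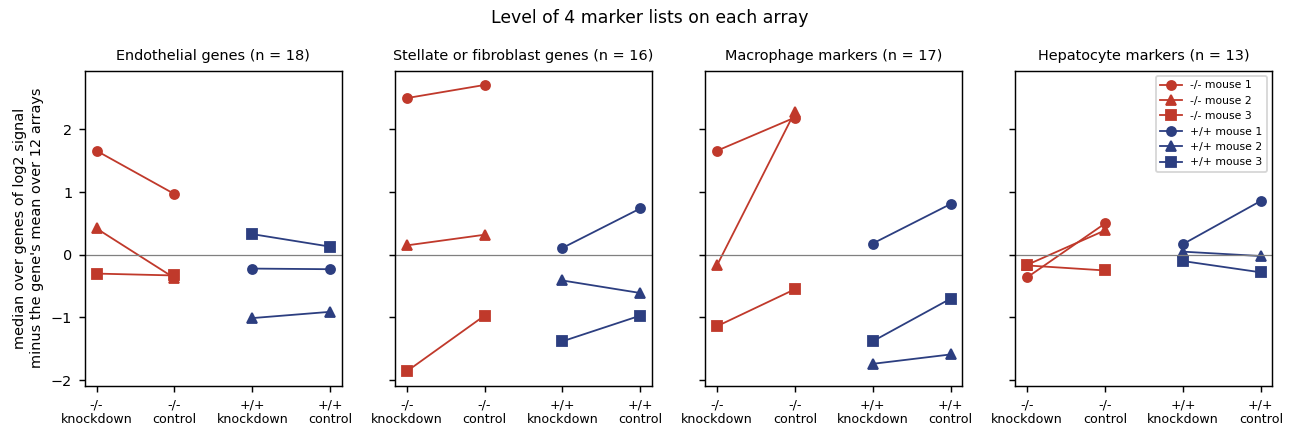
Median over the genes of a list of the log2 signal minus each gene's mean over 12 arrays, on every array; a line joins knockdown and control cultures of a mouse, with -/- in red and +/+ in blue. The 3 -/- mice are far apart for stellate or fibroblast genes (2.5, 0.15 and -1.86 with knockdown) and for macrophage markers. They are closer for hepatocyte markers (-0.36, -0.16 and -0.17 with knockdown, and 0.5, 0.39 and -0.25 with control).

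The effect of the hairpin was asked next. Quantile normalization gives every array the same distribution, and when arrays were instead scaled to spike-in controls the median of all tested genes was -0.85 in +/+ cells, -0.78 in -/- cells and -0.81 averaged over both. In -/- cells 16 of 18 endothelial genes had a positive log2 difference of knockdown against control (median 0.46, range -0.21 to 2.02), and in +/+ cells 12 of 18 (median 0.07, range -0.65 to 1.79). Of all tested genes 48.2% were positive in -/- cells and 49.6% in +/+ cells. Genes of 1 cell type move together, so such counts describe few independent events. With spike-in scaling these medians were -0.40 in -/- cells and -0.82 in +/+ cells. Of 16 stellate or fibroblast genes 12 had a negative difference in -/- cells (median -0.39) and 12 in +/+ cells (median -0.29), and with spike-in scaling these medians were -1.07 and -1.17. The 16 include Col6a1, Des and Lrat, which did not pass the filter, have uncertain low values and were negative in both genotypes. The counts and medians of this set are therefore not those of its 13 tested genes. Medians over all tested genes were -0.02 in -/- cells and -0.01 in +/+ cells in the quantile-normalized data.

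Within mice, the median difference of endothelial genes was 0.76, 0.68 and 0.07 in -/- mice and 0.31, -0.34 and 0.13 in +/+ mice. That of stellate or fibroblast genes was -0.05, -0.25 and -1.01 in -/- mice and -0.68, 0.07 and -0.15 in +/+ mice. Medians of the group means moved with single arrays, since leaving out 1 array leaves unequal sets of mice in the groups. Without the knockdown array of -/- mouse 1, the endothelial median in -/- cells was -0.07. The stellate or fibroblast median in -/- cells was -1.27 without the knockdown array of -/- mouse 1, 0.52 without that of -/- mouse 3 and 0.35 without the control array of -/- mouse 1. In +/+ cells it was 0.32 without the control array of mouse 1.

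No member passed the test of knockdown in 1 genotype: limma called 0 of 31 tested members in -/- cells, against 0.994% of all genes, and 0 in +/+ cells, against 1.20%. No member had an unadjusted p under 0.05 in either. The lowest adjusted p was 0.537 in -/- cells (the brightest probe of Acta2, -0.39, SE 0.24) and 0.372 in +/+ cells (Vim, -0.80, SE 0.43). Averaged over genotypes, 0 of 31 members were called against 8.25% of all genes, and again 0 had an unadjusted p under 0.05. The endothelial median was then 0.27. That of all 16 stellate or fibroblast genes, with the 3 that did not pass the filter, was -0.44, which became 0.09 without the knockdown array of -/- mouse 3. With spike-in scaling limma called 2 of 31 members in +/+ cells, Stab2 and the brightest probe of Acta2, both lower, against 22.7% of all genes. Averaged over genotypes it called 3 of 31, these and Vim, all lower, against 54.6%. The difference between both effects of knockdown called 0 of 31 members and 0.0% of all genes, with 0 members at an unadjusted p under 0.05.

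Comparing both cultures of a mouse removes the spread between mice. With the mouse as a block, limma called 4 members averaged over genotypes, Vwf, Flt1 and Esam higher and Vim lower, which is fewer than the background of 32.8% of all genes. With the replicate number as a block it called 1, Vim, against 29.0%. Vwf differed within mice by 0.41, 3.7 and 1.95 in -/- mice and 3.4, 0.61 and 1.36 in +/+ mice. Its mean difference was 1.91 or 3.75-fold (SE 1.11, adjusted p = 0.285 without a block and 0.0272 with the mouse as a block in limma), and 1.13 with spike-in scaling. The second Vwf probe gave 1.37. For Flt1 the differences were 0.54, 1.59 and 0.31 in -/- mice and 0.40, 0.34 and 0.44 in +/+ mice, with a mean of 0.60 (SE 0.44, adjusted p = 0.395, and 0.0477 with the mouse block in limma) that was -0.25 with spike-in scaling. Esam had a mean of 0.44 (adjusted p = 0.387, and 0.0382 with the mouse block in limma), or -0.45 with spike-in scaling, and was higher with knockdown in 5 of 6 mice. Under spike-in scaling the median of all tested genes was -0.81.

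Vim was the member with the steadiest difference. It read -0.65 averaged over genotypes (SE 0.30, adjusted p = 0.185 with limma), with -0.22, -0.33 and -0.97 in -/- mice and -0.91, -0.34 and -1.16 in +/+ mice. The adjusted p was 0.0191 with the replicate block and 0.0271 with the mouse block in limma, and the difference was -0.29 with scaling to the 75th percentile and -1.19 with spike-in scaling. Col1a1 was negative in each mouse too, by -0.17, -0.17 and -1.38 in -/- mice and -1.05, -0.66 and -0.16 in +/+ mice, with an adjusted p of 0.755 (0.0708 with the mouse block in limma).

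Over 6 mice, Flt1, Lyve1 and Vwf were higher with knockdown in each of them, which is 3 of 18 endothelial and 0 of 13 stellate or fibroblast genes against 19.4% of all tested genes. Col1a1 and Vim were lower in each of them, 0 of 18 and 2 of 13 against 18.9%. These shares do not exceed the background. Lyve1 had within-mouse differences of 1.03, 1.08 and 0.18 in -/- mice and 0.63, 0.06 and 0.10 in +/+ mice and its other probe a mean of 0.74.

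**Figure D4:**
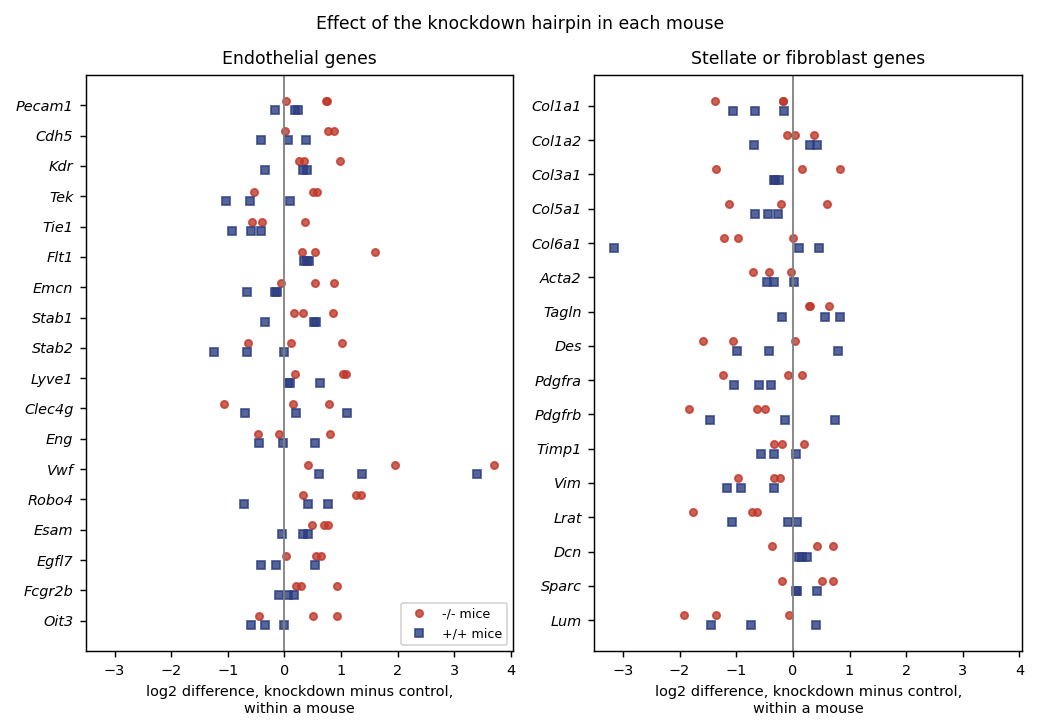
Log2 difference, knockdown minus control, within each of 3 -/- mice (red circles) and 3 +/+ mice (blue squares) for each member, with 0 as a grey line. Vwf has 6 of 6 points above 0 with a highest of 3.7 and Vim 6 of 6 below 0, while most members have points on both sides.

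The genotype was compared last. Averaged over vectors, 15 of 18 endothelial genes had a positive log2 difference of -/- against +/+ (median 0.76, range -0.63 to 1.55) and 16 of 16 stellate or fibroblast genes had one of 0 or more (median 0.83, range 0.00 to 1.18). Of all tested genes 52.7% were positive. The 16 include Col6a1, Des and Lrat, which did not pass the filter, and genes of 1 cell type move together. With knockdown the medians were 0.91 for endothelial and 0.71 for stellate or fibroblast genes, and with control 0.49 and 0.85. The last became -0.12 without the control array of -/- mouse 1. Medians over all tested genes were 0.02 to 0.03.

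The test called 0 of 31 members in each of these comparisons. It called 0.0842% of all genes with knockdown, 0.0894% with control and 0.116% averaged over vectors. Averaged over vectors 1 member, Fcgr2b, had an unadjusted p under 0.05 (1.28, SE 0.55, adjusted p = 1.0 with limma), and 0 had one with either vector alone. With the replicate number as a block, 6 of 18 endothelial and 5 of 13 stellate or fibroblast genes had one averaged over vectors. Of these 0 were called (lowest adjusted p = 0.185, Pdgfra, with limma), and the matching share of all genes is not given. Tie1 read 1.55 (SE 0.71) and Pdgfra 1.18 (SE 0.61). Standard errors of the averaged difference ran from 0.24 (Acta2) to 1.28 (Vwf).

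Within replicate numbers, which share an assay and a slide, the differences did not go 1 way. In replicates 1 and 2, with both vectors, -/- was above +/+ in 4 of 4 pairs for 12 of 18 endothelial and 8 of 13 stellate or fibroblast genes, against 15.8% of all tested genes. In replicate 3, -/- was below +/+ with both vectors for 14 of 18 endothelial and 5 of 13 stellate or fibroblast genes, against 36.6%. This split of the replicates follows the pattern in these same values, so the counts describe it and do not test it. Kdr differed by 1.9, 2.66 and -0.51 with knockdown and 1.3, 1.97 and -0.44 with control. Emcn differed by 2.64, 2.06 and -0.72 with knockdown and 1.64, 0.87 and -0.81 with control. For the endothelial set as a whole the median differences were 1.76, 1.37 and -0.48 with knockdown and 1.39, 0.36 and -0.48 with control. For the stellate or fibroblast set they were 2.3, 0.58 and -0.58 with knockdown and 1.56, 0.71 and 0.13 with control. Macrophage markers, 17 genes, had median differences of 1.91, 1.28 and 0.25 with knockdown and 1.42, 4.33 and 0.29 with control, and their part in the genotype values was not tested. Vwf went the other way in replicate 2, where the difference was -2.13 with knockdown and -5.23 with control.

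**Figure D5:**
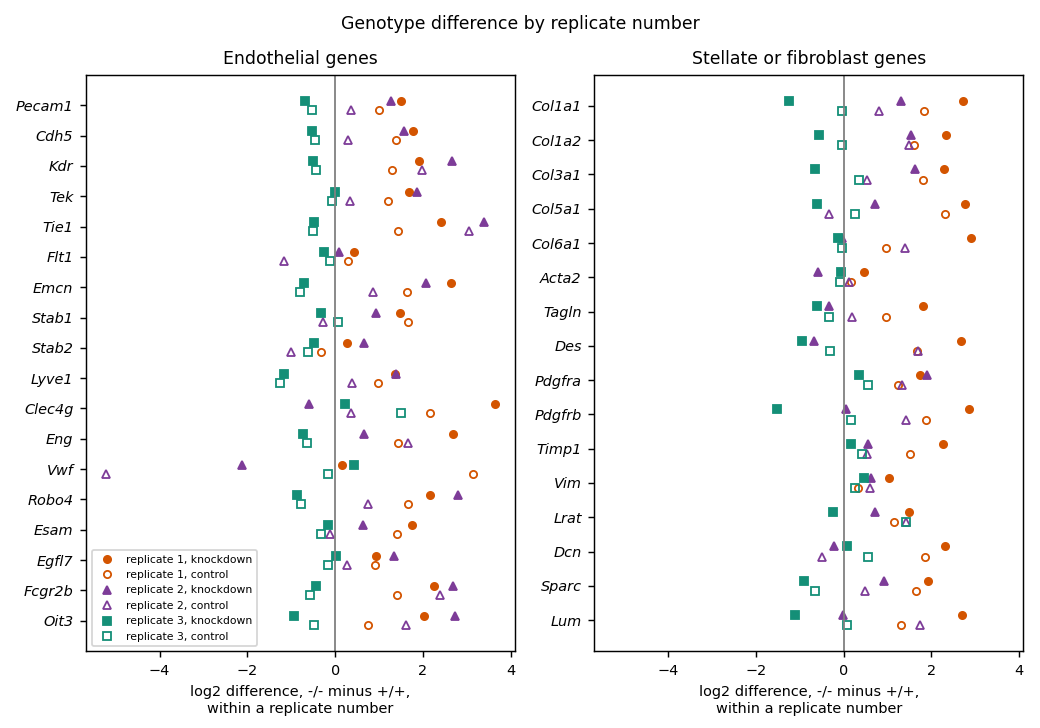
Log2 difference, -/- minus +/+, within replicate numbers 1, 2 and 3 with knockdown (filled) and control (open) for each member, with 0 as a grey line. Replicate 1 lies to the right of 0 for most members, replicate 3 lies to the left for most endothelial genes, and Vwf has the lowest point, -5.23 in replicate 2 with control.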

How the data were processed

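Total RNA of 12 primary hepatocyte cultures was measured on whole-genome mouse arrays of Agilent with 1 dye, each slide carrying 4, and read with Feature Extraction 10.1.1.1, per the submitters' processing notes, which also name limma without a version. The deposited table holds log2 values that the authors made by setting signals under 1 to 1 and quantile normalizing, per the series' design text. The deposited array files give processed and median intensity on a linear scale and other columns with flags of 0 or 1 per spot, per the file headers. The log2 table correlated by at least 0.99997 per array with values recomputed here from the intensities. Rows of 78 control features were left out, which left 41174 probes. The number of arrays limits the precision, and 0 pairs of arrays were identical.

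The files pair no probe with a symbol, so RefSeq accessions were looked up in an annotation of assembly GRCm38.p6, where 24375 probes matched and 16799 did not. The array files name build mm8, so no probe coordinates are given, and promoters carry the coordinates of RefSeq. A gene is represented by its brightest probe, and 19012 genes or accessions passed, each well above background on every array of some group. Tests used limma 3.58.1 and statmod 1.5.0 in R 4.3.3 on 1 fit of 4 group means to 12 arrays (8 residual and 2.76 prior degrees of freedom), two-sided. Calls were made under 0.05 after Benjamini-Hochberg adjustment over the 19012 genes. For the mean genotype difference over vectors the mouse was a random block, with a within-mouse correlation of 0.582. The code was tested on simulated data. Tables were made with pandas 2.3.3 and figures with matplotlib 3.10.9 in Python 3.11.15.

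Samples were grouped by the titles, and mouse and assay numbers were read from the source names. Arrays that share a number deviated together from their group means, while r did not exceed 0.096 for arrays with unlike numbers. Between both arrays of 1 mouse r was 0.458 to 0.672. Between arrays of 1 number and hairpin but unlike genotype, so of different mice, it was 0.233 to 0.642. Both arrays of a number within a genotype come from 1 mouse. A replicate block and a mouse block were therefore fitted as alternatives. Other alternatives were recomputed values, scaling to the 75th percentile or to 8 of 10 spike-in probes, normexp with an offset of 50 on median signals (the files used here hold no mean signals), both filters on dim probes, the mean of a gene's probes, only the groups compared, and leaving out each array. Leaving out both arrays of each mouse was added after seeing the data, as were the 4-fold counts under other values. The members and lists were chosen with earlier results of these data known. Every member with a probe is named, with all arrays where its probe passed the filter, and of other lists the genes called are named, at most 4 per list and comparison, beside markers of macrophages and hepatocytes. The level of the targeted gene is not reported here.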

Additional observations from a re-analysis of the deposited data

How the results depend on the processing

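The count of 0 called members held in each of the 7 comparisons without any single array, without both arrays of any mouse, and under recomputed values, 75th percentile scaling, normexp, the other filters, the mean of probes and only the groups compared. Spike-in scaling called 2 members for knockdown in +/+ cells (Stab2 and the brightest probe of Acta2, lower; 22.7% of all genes) and 3 averaged over genotypes (these and Vim, lower; 54.6%), the replicate block 1 (Vim) and the mouse as a block 4 averaged over genotypes. Neither block changed the count of calls in another comparison. Spike-in scaling gave endothelial medians for knockdown of -0.40 in -/- cells, -0.82 in +/+ cells and -0.61 averaged, and stellate or fibroblast medians of -1.07, -1.17 and -1.17, where the median of all genes was -0.78, -0.85 and -0.81. With single arrays left out, the endothelial median for knockdown ranged from -0.07 to 0.91 in -/- cells and the difference of both effects from -0.04 to 0.83. For stellate or fibroblast genes it ranged from -1.27 to 0.52 in -/- cells, from -0.89 to 0.32 in +/+ cells and from -0.87 to 0.09 averaged, the difference of both effects from -0.99 to 0.77, and the genotype difference with control from -0.12 to 1.77. Normexp, which adds an offset of 50 to each signal, left 10 members with a 4-fold range over -/- mice and 6 over +/+ mice, against 16 and 14. Members not well above background on all arrays (Tie1, Clec4g, Vwf, Lum, Col6a1, Des and Lrat) have uncertain low values.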

Other observations

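Genes outside the 34 members that act in the same niche were called for knockdown. Wnt9b, a Wnt ligand made by central vein endothelium, read 4.62, 5.3 and 5.19 in -/- knockdown cells, 2.82, 2.16 and 2.26 in -/- control cells, 4.5, 4.78 and 5.65 in +/+ knockdown cells and 3.12, 4.35 and 3.42 in +/+ control cells. It was not well above background on any -/- control array and was so on 2 of 3 +/+ control arrays. It therefore passed the filter on dim probes only through the knockdown groups, where it was high, and its p-values are no independent support. In -/- cells it was at least 3.69-fold higher with knockdown (adjusted p = 0.00952 with limma, 0.0595 with spike-in scaling), counting each dim array at the lowest signal of a probe well above background or at its own, whichever was higher. Colec11, a collectin, read 8.32, 8.92 and 10.3 in -/- knockdown cells, 6.19, 5.88 and 6.57 in -/- control cells, 8.02, 10.08 and 10.92 in +/+ knockdown cells and 4.84, 6.49 and 7.06 in +/+ control cells. It rose by 3.26 averaged over genotypes (SE 0.56, adjusted p = 0.00722 with limma), in 6 of 6 mice, and by 2.48 with spike-in scaling. In these lists 1 of 36 tested further endothelial genes and 1 of 37 tested further stellate or fibroblast genes were called averaged over genotypes, against 8.25% of all genes.

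Among markers of other cell types, Cebpa, a transcription factor of hepatocytes, fell by 1.06 and Ass1, an enzyme of the urea cycle, fell by 0.65 averaged over genotypes (adjusted p = 0.0230 and 0.0421 with limma). They were the 2 called of 13 tested hepatocyte markers, against 8.25% of all genes. Of 10 lymphocyte markers 4 were well above background on no array and only 3 passed the filter. Averaged over genotypes 2 of these 3 were called, against 8.25% of all genes. These were Cd79b and Cd3e, chains of the B cell and T cell receptors, with differences of 2.39 and 1.1 (adjusted p = 0.0498 and 0.0321 with limma). With spike-in scaling they were 1.76 and 0.47 (adjusted p = 0.0349 and 0.105 with limma), so the call of Cd3e was lost. Only 1 of the 10 markers was well above background on all 12 arrays, so at least 1 of these 2 was dim on some. A dim gene that passed the filter through the group where it was high gains no independent support from its p-value, and its difference is uncertain. Of 17 macrophage markers 16 had a negative difference (median -0.73), 0 of 15 tested were called without a block and 9 with the mouse as a block, against 8.25% and 32.8% of all genes. Of 19 ligands that act on vessels or stellate cells, 10 had a positive and 9 a negative difference averaged over genotypes (median 0.04). Of 17 tested, limma called 0 without a block, against 8.25% of all genes. With the mouse as a block it called 2 higher and 2 lower, against 32.8%, and with spike-in scaling 0 higher and 6 lower, against 54.6%. The highest difference was that of Vegfa, the main ligand of Kdr and Flt1, at 1.94 (SE 0.62, adjusted p = 0.0746, and 0.00275 with the mouse as a block in limma).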
